A study of Mus musculus with 14 samples.

Results

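Leukemia inhibitory factor (LIF) is the cytokine added to serum medium to keep mouse ES cells undifferentiated. It binds a receptor made of LIFR and gp130, the product of *Il6st*. JAK kinases bound to the receptor then phosphorylate STAT3, which enters the nucleus and activates its target genes. One of these targets, *Socs3*, encodes an inhibitor that acts back on gp130 and the JAKs, so that its RNA is widely used as a readout of the pathway. The RNA levels described here are not a measure of phosphorylated STAT3.

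The genes examined were 10 of the 23298 genes in the deposited table, and all 10 were found by their symbols. They comprise the ligand *Lif*, the receptor chains *Lifr* and *Il6st*, the kinase *Jak1*, the transcription factor *Stat3*, and 5 genes known as its targets in ES cells, *Socs3*, *Pim1*, *Pim3*, *Gbx2* and *Bcl3*. They were given by name, and no value enters the rule. All of them are autosomal, and all of them passed the filter on low values in every comparison.

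RNA had been sequenced from 14 independent ES cell lines, each established from a single blastocyst of a cross between C57BL/6J (B) and CAST/EiJ (C) mice, with the maternal strain written first. There were 3 BC XX, 3 BC XY, 2 BC XO, 3 CB XX and 3 CB XY lines, none of which carried an engineered allele. All lines were grown with LIF on inactivated mouse embryonic fibroblasts, the feeder cells, which were removed in 2 successive steps before RNA was isolated. No line was cultured without LIF, so that the levels have no unstimulated reference. Each line is 1 sample. Numbers of the CB XX lines only name their columns from first to last.

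Values are a read signal per gene that the authors scaled to a common depth, so that each line sums to between 28150946 and 30657803. With the smallest step between values as 1 read, a line holds 11904424 to 69646376 reads, and each CB XY line holds fewer than any BC line. *Pou5f1*, a defining ES cell gene, had values of 10830 to 29386 in the 14 lines. The 29 fibroblast genes summed to between 207100 and 447020 in the BC XX lines and to between 67047 and 119100 in the other 11 lines, and none of the 29 was at 0 in any line. By contrast, CB XY 2 and CB XY 3, both labelled XY, had *Uty* values of 19.6 and 45.4, against 945 to 2088 in the other 4 lines labelled XY and 12.8 to 195 in the XX lines. *Ddx3y*, also Y-linked, was at 27.0 in CB XY 2 and 126 in CB XY 3, and at 1084.5 to 2268.1 in the other XY lines. It reached 1023.5 in the XX lines, in BC XX 3. Of 4 Y-linked genes 1 was called higher and 1 lower in BC XX than in BC XY lines. Comparisons that include CB XY 2 and CB XY 3 are given with and without them, except the difference of the XX against XY effect between the crosses. The relations to the fibroblast level and the most similar patterns are also given only with both lines.

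The promoters of 4 targets are shown first, because these are the genes that differed between groups in the comparisons described last. STAT3 binds palindromes of the form TTCNNNGAA, which reads the same on both strands and was searched in the 250 bases before each RefSeq start. Of the 10 genes, *Socs3* alone had a match in such a window. The motif was found in 7.02% of all 32851 windows of this length, and in at least 1 window of 8.13% of the genes. The sequences are RefSeq promoter sequences (GRCm38.p6), placed by a unique match on NCBIM37, the mm9 build used by the authors. Bases that overlap an annotated exon next to the start are left out, and capitals mark the motif.
Socs3: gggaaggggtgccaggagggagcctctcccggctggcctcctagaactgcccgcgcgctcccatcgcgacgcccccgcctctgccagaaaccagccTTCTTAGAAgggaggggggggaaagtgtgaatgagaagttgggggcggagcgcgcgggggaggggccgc
Pim1: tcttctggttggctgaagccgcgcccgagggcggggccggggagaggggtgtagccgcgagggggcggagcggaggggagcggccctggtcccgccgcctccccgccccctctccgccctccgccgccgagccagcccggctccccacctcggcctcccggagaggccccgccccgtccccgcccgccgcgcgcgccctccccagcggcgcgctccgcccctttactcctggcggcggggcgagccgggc
Pim3: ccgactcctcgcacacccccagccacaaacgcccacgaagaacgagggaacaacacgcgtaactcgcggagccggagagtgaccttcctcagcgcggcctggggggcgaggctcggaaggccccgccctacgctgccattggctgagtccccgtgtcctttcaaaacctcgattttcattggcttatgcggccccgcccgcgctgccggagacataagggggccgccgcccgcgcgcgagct
Bcl3: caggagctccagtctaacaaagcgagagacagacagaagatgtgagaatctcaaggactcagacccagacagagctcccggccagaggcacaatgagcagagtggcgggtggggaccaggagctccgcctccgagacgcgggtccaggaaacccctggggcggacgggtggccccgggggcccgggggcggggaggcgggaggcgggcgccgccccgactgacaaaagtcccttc
The *Socs3* stretch lies on the minus strand at chr11:117830766-117830930, and its motif, TTCTTAGAA, covers the bases from 154 to 146 before the start. It is intronic to an annotated *Socs3* transcript whose first exon lies further upstream. The others lie upstream of the annotated genes, on the plus strand at chr17:29627480-29627729 for *Pim1*, on the plus strand at chr15:88692374-88692615 for *Pim3*, and on the minus strand at chr7:20408120-20408354 for *Bcl3*. The missing match in these windows says only that these letters do not occur there.

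Levels of different genes were compared per kilobase of annotated exon, as means over the 14 lines. *Pim1* and *Pim3*, which encode serine/threonine kinases, had the highest levels, 1825 and 1569 per kb. *Socs3* followed at 1165, *Il6st* at 811, *Jak1* at 423, *Stat3* at 402 and *Lifr* at 361 per kb. *Lif* was at 76.3, *Bcl3* at 75.5 and *Gbx2* at 30.0 per kb. Neighbours in this order overlapped over the lines, except that every line had more *Lifr*, at least 213 per kb, than any line had *Lif*, at most 109 per kb. The lowest of all member values, *Gbx2* in CB XX 3, still corresponded to 47 reads.

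**Figure D1:**
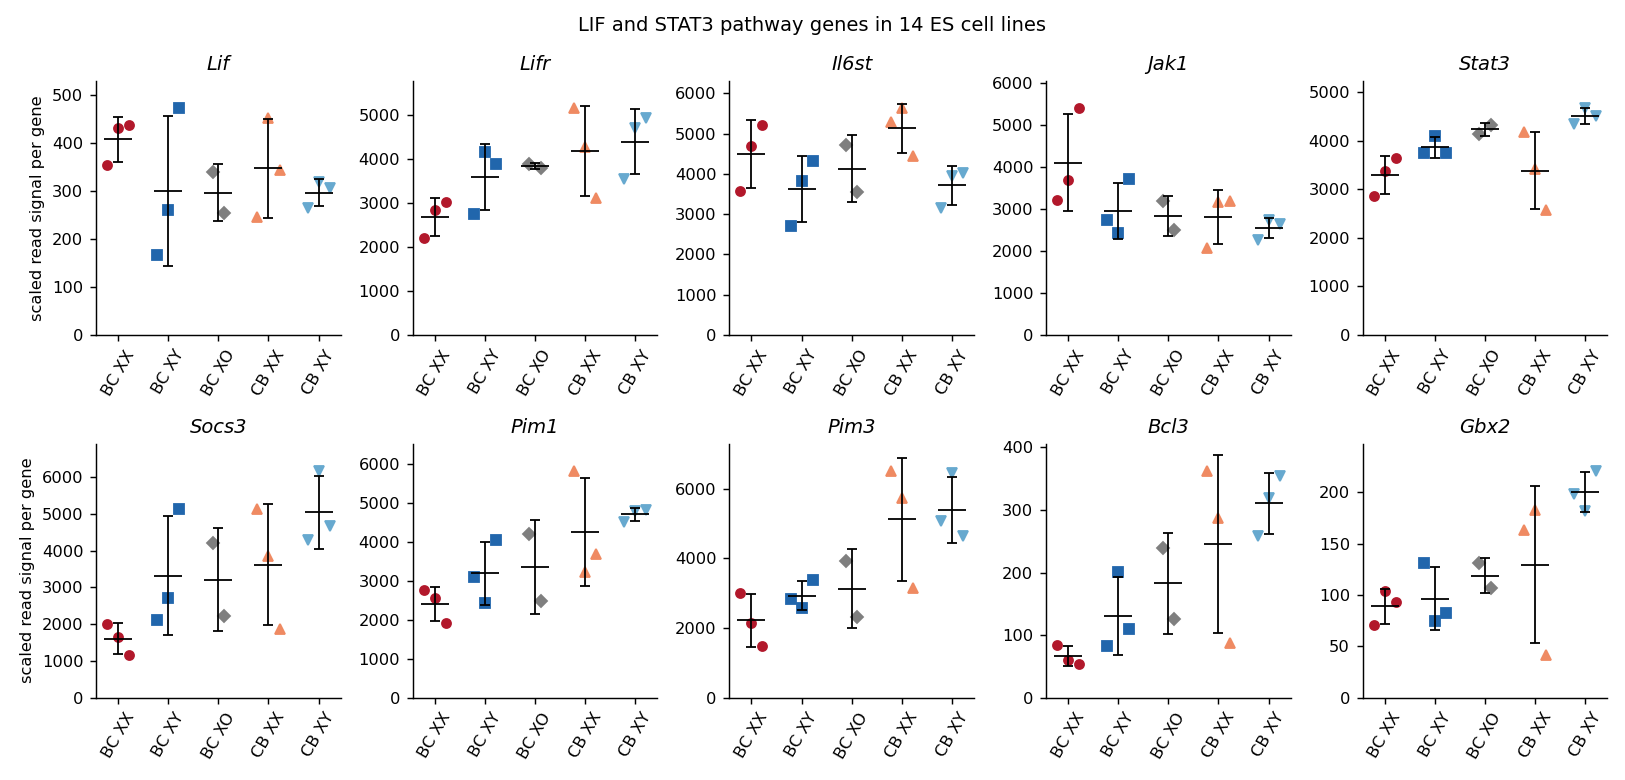
Scaled read signal of the 10 genes in each of 14 lines (points, vertical axis from 0), by group on the horizontal axis. Black bars give the mean and SD of 3 lines, or 2 for BC XO. *Socs3* ran from 1155 to 6170 and *Stat3* only from 2566 to 4664. CB XX 3 was the lowest CB line for *Lifr*, *Stat3*, *Socs3*, *Pim3*, *Bcl3* and *Gbx2*.

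*Lif* had values of 353, 432 and 438 in the BC XX lines and of 166, 260 and 473 in the BC XY lines. It was at 339 and 255 in the BC XO lines, at 246, 452 and 343 in the CB XX lines and at 265, 319 and 306 in the CB XY lines. For the ligand every BC XX line was above both BC XO and all CB XY lines, while the BC XY lines spanned the whole range.

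*Lifr* had values of 2196, 2844 and 3010 in BC XX, of 2739, 4153 and 3886 in BC XY and of 3890 and 3794 in BC XO lines. In the CB cross it was at 5151, 4281 and 3101 in XX and at 3550, 4696 and 4938 in XY lines. The BC XX lines were thus below every BC XO and CB line. *Il6st*, the gp130 chain shared with other cytokine receptors, had values of 3566, 4706 and 5219 in BC XX and of 2710, 3830 and 4311 in BC XY lines. It was at 4726 and 3544 in BC XO, at 5302, 5633 and 4454 in CB XX and at 3151, 3957 and 4033 in CB XY lines. For gp130 all XX lines of the CB cross were above its XY lines, while the groups of the BC cross overlapped.

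*Jak1*, the main receptor-bound kinase, had values of 3202, 3695 and 5393 in BC XX, of 2730, 2424 and 3704 in BC XY and of 3175 and 2503 in BC XO lines. It was at 2061, 3155 and 3188 in CB XX and at 2262, 2726 and 2630 in CB XY lines. The value of BC XX 3 was the highest of all lines. *Stat3* had values of 2853, 3371 and 3634 in BC XX, of 3739, 4102 and 3736 in BC XY and of 4135 and 4326 in BC XO lines. In the CB cross it was at 4166, 3414 and 2566 in XX and at 4344, 4664 and 4504 in XY lines. For *Stat3* every XX line was below every XY line of its own cross, and every BC XX line was below both XO lines.

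*Socs3*, the feedback inhibitor, had values of 2001, 1643 and 1155 in BC XX and of 2109, 2708 and 5147 in BC XY lines. It was at 4201 and 2212 in BC XO, at 5137, 3843 and 1874 in CB XX and at 4290, 6170 and 4660 in CB XY lines. The BC XX lines were below every BC XY and BC XO line, while CB XX 3 fell among the BC XX lines. BC XY 3 stood above the other 2 lines of its group and in the range of the CB XY lines.

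*Pim1* had values of 2769, 2548 and 1915 in BC XX, of 3099, 2430 and 4050 in BC XY, of 4209 and 2495 in BC XO, of 5825, 3223 and 3692 in CB XX and of 4518, 4797 and 4808 in CB XY lines. *Pim3* had values of 3015, 2154 and 1486 in BC XX, of 2838, 2559 and 3386 in BC XY, of 3930 and 2319 in BC XO, of 6504, 5717 and 3133 in CB XX and of 5059, 6447 and 4646 in CB XY lines. Both kinases were higher in every CB line than in the BC lines of the same sex chromosome label. *Bcl3*, an atypical IκB protein that acts as a nuclear cofactor, had values of 83.9, 60.2 and 54.0 in BC XX, of 82.4, 201 and 109 in BC XY and of 239 and 126 in BC XO lines. It was at 362, 288 and 87.1 in CB XX and at 259, 319 and 354 in CB XY lines. *Gbx2*, a homeobox transcription factor, had values of 70.2, 103 and 93.3 in BC XX, of 131, 74.8 and 82.3 in BC XY and of 131 and 107 in BC XO lines. It was at 163, 183 and 41.8 in CB XX and at 198, 182 and 221 in CB XY lines. For both transcription regulators CB XX 3 was far below the other 2 CB XX lines.

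The first comparison asked whether the pathway differed with the sex chromosome complement. None of the 10 genes differed between the 6 XX and the 6 XY lines at an adjusted p of 0.05 (limma on log2(value + 5), Benjamini-Hochberg adjustment over all genes), where 5.21% of all 15311 genes tested were called. At an unadjusted p of 0.05 there were 3 of 10, against 23.1% of all genes. *Il6st* had means of 4813 in XX and 3665 in XY lines, a log2 difference of 0.39 ± 0.14 (SE, 6 lines a group, limma adjusted p = 0.117). *Stat3* had means of 3334 and 4182, a log2 difference of -0.34 ± 0.12 (limma adjusted p = 0.123). *Socs3* had means of 2609 and 4181, a log2 difference of -0.78 ± 0.35 (limma adjusted p = 0.200). The other log2 differences were -0.25 for *Lifr*, 0.29 for *Jak1*, 0.37 for *Lif*, -0.29 for *Pim1*, -0.29 for *Pim3*, -0.46 for *Gbx2* and -0.70 for *Bcl3*. This comparison had no term for the cross. With the cross as a covariate none of the 10 genes was called, while 1697 of 15311 genes were. The log2 differences stayed the same, and the limma adjusted p was 0.0766 for *Il6st*, 0.0791 for *Stat3* and 0.066 for *Socs3*. Over the 10 genes the median log2 difference was -0.29, against -0.03 over all genes tested. In the fit without the cross, leaving out CB XX 1 raised the calls over all genes to 1746 of 15445. The *Stat3* difference then passed the threshold, at -0.41 (limma adjusted p = 0.0425). Without CB XY 2 and CB XY 3 none passed it, and *Il6st*, *Stat3* and *Socs3* differed by 0.47, -0.27 and -0.55. With the fibroblast level as a covariate the difference of *Socs3* was 0.00, that of *Il6st* 0.51 and that of *Stat3* -0.31 (limma adjusted p = 0.999, 0.163 and 0.408). With both the cross and the fibroblast level as covariates these differences were -0.21, 0.48 and -0.36 (limma adjusted p = 0.775, 0.202 and 0.295). None of the 10 genes was called in either fit, against 475 and 532 of 15311 genes.

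Within the BC cross none of the 10 genes was called between XX and XY lines, against 5.70% of all 16261 genes tested, and 1 had an unadjusted p under 0.05, against 23.1% of all genes. That gene was *Socs3*, with means of 1600 ± 424 (SD, n = 3) in XX and 3321 ± 1609 (SD, n = 3) in XY lines. Its log2 difference was -0.98, with a 95% interval from -1.80 to -0.16 (limma adjusted p = 0.145). *Bcl3* had a log2 difference of -0.86, with an interval from -1.84 to 0.12, and *Lifr* one of -0.41, with an interval from -0.86 to 0.04. The other log2 differences were 0.32 for *Il6st*, 0.46 for *Jak1*, -0.24 for *Stat3*, 0.56 for *Lif*, -0.39 for *Pim1*, -0.45 for *Pim3* and -0.08 for *Gbx2*. The lines of the 2 groups did not overlap for 2 of the 10 genes, *Stat3* and *Socs3*, and for 27.1% of all genes. The fibroblast genes moved with this comparison, since 22 of the 29 were higher in BC XX than in BC XY lines and 0 were lower at an adjusted p of 0.05. With their mean level as a covariate, which nearly coincides with the BC XX group, the log2 difference of *Socs3* was 0.51 ± 0.54 (SE, limma adjusted p = 0.869), so that its sign turned. The sign also turned for *Pim1*, *Pim3* and *Bcl3*, with log2 differences of 0.34, 0.58 and 0.17 under the covariate. The 10 ES cell marker genes had a median log2 difference of -0.20, with 8 below 0, 2 above 0 and 0 called. The median was -0.31 over the 10 members and -0.04 over all genes. The lowest *Pou5f1* value, 10830, was that of BC XX 3, the line with the highest fibroblast sum, 447020. The part of the markers in the result was not tested. In bulk RNA fewer cells of a type and less RNA per cell cannot be told apart.

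Within the CB cross again none of the 10 was called between XX and XY lines, against 3.57% of all genes. *Stat3* had means of 3382 ± 800 (SD, n = 3) in XX and 4504 ± 160 (SD, n = 3) in XY lines, a log2 difference of -0.44 ± 0.16 (SE, limma adjusted p = 0.164). *Il6st* differed by 0.47 ± 0.20 on the log2 scale, higher in XX lines (SE, limma adjusted p = 0.225). These 2 genes had an unadjusted p under 0.05, against 18.6% of all genes, and they were also the genes whose lines did not overlap, which held for 23.2% of all genes. Of the fibroblast genes 0 of 29 were called here. For *Socs3* the difference was -0.58, with a 95% interval from -1.40 to 0.24, a range that includes both no difference and the value of the BC cross. *Gbx2* differed by -0.84, *Bcl3* by -0.54, *Pim1* by -0.20, *Pim3* by -0.13, *Lifr* by -0.09, *Jak1* by 0.12 and *Lif* by 0.18 on the log2 scale. With CB XY 1 as the only XY line of the cross, *Stat3* and *Il6st* differed by -0.39 and 0.70, and calls are not given for a group of 1 line. The difference of the XX against XY effect between the crosses was called for 0 of the 10 genes (0.0738% of all genes), with 0 also at an unadjusted p of 0.05, which 9.05% of all genes passed. Coded as BC minus CB it was 0.76 for *Gbx2*, with an interval from -0.51 to 2.04. It was 0.38 for *Lif*, 0.34 for *Jak1*, 0.20 for *Stat3*, -0.14 for *Il6st*, -0.19 for *Pim1* and -0.40 for *Socs3*, and -0.32 for each of *Lifr*, *Pim3* and *Bcl3*.

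**Figure D2:**
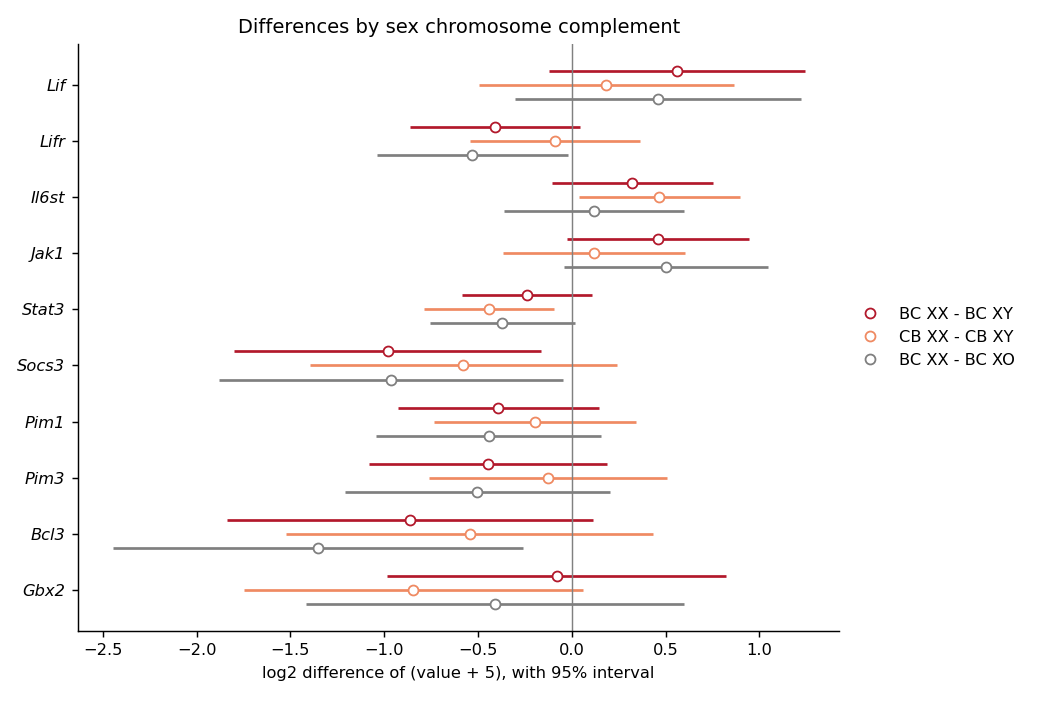
Log2 differences of the 10 genes with 95% intervals (horizontal axis) for BC XX minus BC XY, CB XX minus CB XY and BC XX minus BC XO lines; open points did not pass an adjusted p of 0.05. All points are open, and *Socs3*, *Stat3*, *Bcl3*, *Lifr*, *Pim1*, *Pim3* and *Gbx2* lie below 0 in the 3 comparisons.

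The XO lines, which have a single X chromosome and no Y, were compared with both other groups of the BC cross. None of the 10 genes was called between BC XX and BC XO lines, against 4.66% of all genes, and 3 had an unadjusted p under 0.05, against 23.7% of all genes. These were *Bcl3*, with a log2 difference of -1.35 ± 0.51 (SE, limma adjusted p = 0.128), *Socs3*, with -0.96 ± 0.43 (limma adjusted p = 0.189), and *Lifr*, with -0.53 ± 0.24 (limma adjusted p = 0.192), each lower in XX lines. The other log2 differences were 0.12 for *Il6st*, 0.50 for *Jak1*, -0.37 for *Stat3*, 0.46 for *Lif*, -0.44 for *Pim1*, -0.50 for *Pim3* and -0.41 for *Gbx2*. *Bcl3* passed the threshold when CB XX 3 was left out of the shared estimate of the spread, where 934 of 16221 genes were called. Of the fibroblast genes 12 of 29 were higher in BC XX than in BC XO lines. The 10 ES cell marker genes had a median log2 difference of -0.23, with 8 below 0, 2 above 0 and 0 called. The median was -0.43 over the 10 members and -0.02 over all genes, and the part of the markers was not tested. Between BC XO and BC XY lines 0 of the 10 genes was called, with 0.00615% of all genes, and none had an unadjusted p under 0.05, against 1.49% of all genes. The log2 difference of *Socs3* was -0.02 here, with a 95% interval from -0.93 to 0.90, which is too wide to show that these groups were alike. *Bcl3* differed by 0.49, *Gbx2* by 0.33, *Il6st* by 0.20, *Stat3* by 0.13, *Lifr* by 0.12, *Lif* by 0.10, *Pim1* and *Pim3* by 0.05 each and *Jak1* by -0.04. The BC XX lines enter both of their comparisons, so that the -0.98 against XY and the -0.96 against XO lines are not independent.

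The reciprocal crosses were compared next. Among XY lines none of the 10 genes was called between CB and BC, against 0.640% of all genes, while 4 had an unadjusted p under 0.05, against 18.7% of all genes. The lines did not overlap for 5 of the 10 genes, *Stat3*, *Pim1*, *Pim3*, *Gbx2* and *Bcl3*, each higher in CB, and for 26.8% of all genes. *Pim3* had means of 5384 ± 944 (SD, n = 3) in CB XY and 2927 ± 421 (SD, n = 3) in BC XY lines, a log2 difference of 0.87 with a 95% interval from 0.24 to 1.51 (limma adjusted p = 0.137). *Bcl3* had means of 311 and 131, a log2 difference of 1.30 with an interval from 0.32 to 2.28 (limma adjusted p = 0.149). *Gbx2* differed by 1.06, with an interval from 0.16 to 1.96, and *Pim1* by 0.59, with an interval from 0.05 to 1.13. The other log2 differences were 0.69 for *Socs3*, 0.30 for *Lifr*, 0.22 for *Stat3*, 0.11 for *Lif*, 0.06 for *Il6st* and -0.20 for *Jak1*. *Pim3* was called when only the 6 XY lines were fitted, at an adjusted p of 0.0364 by limma, and *Gbx2* was called without CB XX 3. Over all genes 386 of 15340 were called in the first of these fits and 422 of 16221 in the second. CB XY 1, the CB XY line with *Uty* RNA, was above all 3 BC XY lines for each of the 5 genes. Without the other 2 lines the log2 difference was 0.80 for *Pim3* and 1.05 for *Bcl3* (limma adjusted p = 0.518 and 0.590).

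Among XX lines *Pim3* and *Bcl3* were higher in CB than in BC lines, and they were 2 of 10 genes called, against 7.15% of all genes in either direction and 2.90% higher in CB. *Pim3* had means of 5118 ± 1764 (SD, n = 3) in CB XX and 2219 ± 767 (SD, n = 3) in BC XX lines, a log2 difference of 1.20 ± 0.30 (SE, limma adjusted p = 0.0318). *Bcl3* had means of 246 ± 142 (SD, n = 3) and 66.1 ± 15.8 (SD, n = 3), a log2 difference of 1.62 ± 0.46 (SE, limma adjusted p = 0.0472). In both genes 3 of 3 CB XX lines were above all BC XX lines. *Socs3* differed by 1.09 ± 0.38 (SE, limma adjusted p = 0.0922), *Pim1* by 0.79 ± 0.25 (adjusted p = 0.0703) and *Lifr* by 0.62 ± 0.21 (adjusted p = 0.0863), all higher in CB. *Jak1* differed by -0.54 ± 0.23 (SE, limma adjusted p = 0.148), lower in CB. *Gbx2* differed by 0.29, *Il6st* by 0.20, *Stat3* by 0.02 and *Lif* by -0.27.
Beside *Pim3* and *Bcl3* the lines did not overlap for *Lifr*, *Jak1* and *Pim1*, which makes 5 of 10 genes against 26.8% of all genes. The median log2 difference was 0.46 over the 10 genes and 0.01 over all genes. The 10 ES cell marker genes, of which *Klf4* is also on a list of targets, had a median of 0.55, with 9 of 10 above 0 and 1 called. Their part in the result was not tested. Leaving out 1 of the 14 lines at a time, *Pim3* was called in 10 fits and *Bcl3* in 3. Without CB XX 3 there were 5 genes called, *Lifr*, *Socs3*, *Pim3*, *Gbx2* and *Bcl3*, and without CB XX 1, CB XX 2, BC XX 2 or BC XX 3 there were 0. The calls over all genes moved as well, to 2576 of 16221 without CB XX 3. They were 150, 386, 289 and 120 without CB XX 1, CB XX 2, BC XX 2 and BC XX 3. The fibroblast genes moved the opposite way, with 16 of 29 lower in CB XX than in BC XX lines and 0 higher. With their mean level as a covariate the log2 difference was 0.44 for *Pim3* and 0.86 for *Bcl3* (limma adjusted p = 0.807 and 0.785).

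A comparison of CB with BC lines averaged over XX and XY was added after the values had been seen, and it reuses the lines of both preceding comparisons. Here 4 of the 10 genes were higher in CB and 0 were lower, against 16.0% of all genes in either direction and 9.22% higher in CB. *Pim3* differed by 1.03 ± 0.21 on the log2 scale (SE, limma adjusted p = 0.00824), with 5 of 6 CB lines above every XX and XY line of the BC cross. *Bcl3* differed by 1.46 ± 0.32 (SE, limma adjusted p = 0.0114), also with 5 of 6 CB lines above all of these BC lines. *Pim1* differed by 0.69 ± 0.18 (limma adjusted p = 0.0211), with 4 of 6 lines above, and *Socs3* by 0.89 ± 0.27 (limma adjusted p = 0.0390), with 1 of 6 above as BC XY 3 was high. *Gbx2* differed by 0.68, with a 95% interval from 0.04 to 1.31 (limma adjusted p = 0.129). Of the 10 ES cell markers 4 were higher in CB and 0 were lower, at a median log2 difference of 0.31, and their part in the result was not tested.
The 4 genes called are targets, while the components upstream of them were not called, and a difference between these classes was not tested. Among these *Lifr* had a log2 difference of 0.46, with a 95% interval from 0.14 to 0.78 and an adjusted p of 0.0511 by limma, so that it lay next to the threshold. *Stat3* had 0.12, with an interval from -0.12 to 0.37, *Il6st* 0.13, with an interval from -0.17 to 0.43, *Jak1* -0.37, with an interval from -0.71 to -0.03, and *Lif* -0.08, with an interval from -0.56 to 0.40.
With CB XY 2 and CB XY 3 left out, CB XY 1 was the only XY line of the CB cross, and log2 differences alone are given. They were 1.00 for *Pim3*, 1.33 for *Bcl3*, 0.66 for *Pim1* and 0.78 for *Socs3*. With the fibroblast level as a covariate 0 of the 10 genes were called. Over all genes 315 of 16261 were called in that fit, against 2605 without the covariate. The same 4 genes then differed by 0.72, 1.15, 0.47 and 0.44 on the log2 scale. *Pim3* and *Bcl3* were called whichever single line was left out. All CB lines but CB XX 3 also hold fewer reads by step than any BC line, and library batches cannot be told apart from the crosses, since lines were not assigned to batches in the sources used here.

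**Figure D3:**
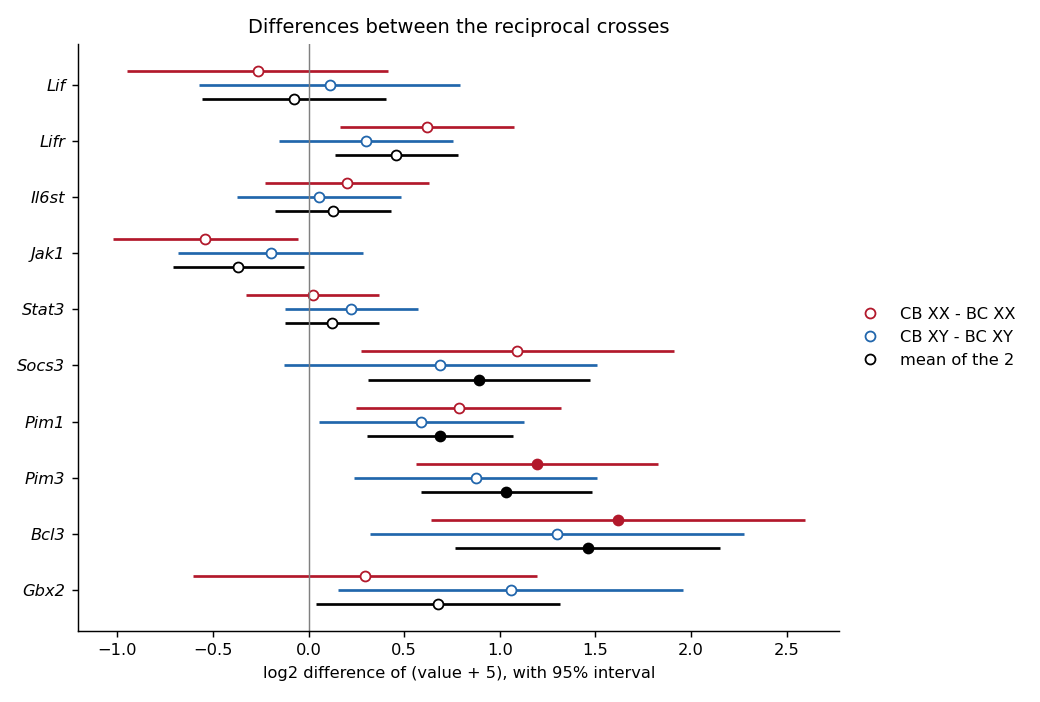
Log2 differences of the 10 genes with 95% intervals (horizontal axis) for CB XX minus BC XX, CB XY minus BC XY and their mean; filled points passed an adjusted p of 0.05. *Pim3* and *Bcl3* are filled for XX lines, *Socs3* and *Pim1* are filled in addition for the mean, and *Jak1* lies below 0 throughout.

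Over the 14 lines *Socs3* was set against the other 9 genes on the log2 scale. It rose most closely with *Pim3* (Pearson r = 0.88, permutation test, two-sided, adjusted p = 0.00045 over 9 relations; Spearman rho = 0.81, adjusted p = 0.00333). For *Pim1* r was 0.86, for *Bcl3* 0.86 and for *Lifr* 0.77, with permutation adjusted p-values of 0.000675, 0.0009 and 0.00342, and rho was 0.79, 0.82 and 0.77. Without BC XX 2 and BC XX 3, the lines farthest from the median of *Socs3*, r was 0.80 for *Pim3*, 0.77 for *Pim1*, 0.79 for *Bcl3* and 0.77 for *Lifr*.
The relation to *Pim3* was as strong within groups. After the group means were removed r was 0.88, and it was 0.87 in the 8 BC lines and 0.91 in the 6 CB lines. With the group means removed r was 0.73 for *Pim1*, 0.70 for *Bcl3*, 0.51 for *Lifr* and 0.50 for *Il6st*. It was 0.41 for *Lif*, 0.40 for *Gbx2*, 0.37 for *Stat3* and -0.08 for *Jak1*. The permutations exchanged lines between groups, so that their p-values also take in differences between group means. For *Stat3* itself r was 0.59 over all lines, 0.36 in the BC lines and 0.95 in the CB lines, and for *Gbx2* it was 0.61, 0.03 and 0.89. For *Il6st* r was 0.05 and for *Lif* it was -0.08 over the 14 lines. *Jak1* ran the other way at r = -0.56 over all lines, -0.14 without BC XX 2 and BC XX 3, -0.36 in the BC lines and -0.58 in the CB lines. In the 12 lines without CB XY 2 and CB XY 3 r was 0.85 for *Pim3*, 0.83 for *Pim1*, 0.83 for *Bcl3*, 0.71 for *Lifr*, 0.47 for *Stat3*, 0.51 for *Gbx2*, 0.10 for *Il6st*, -0.07 for *Lif* and -0.55 for *Jak1*. Without them 4 CB lines remain, too few for a value of that cross alone.

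**Figure D4:**
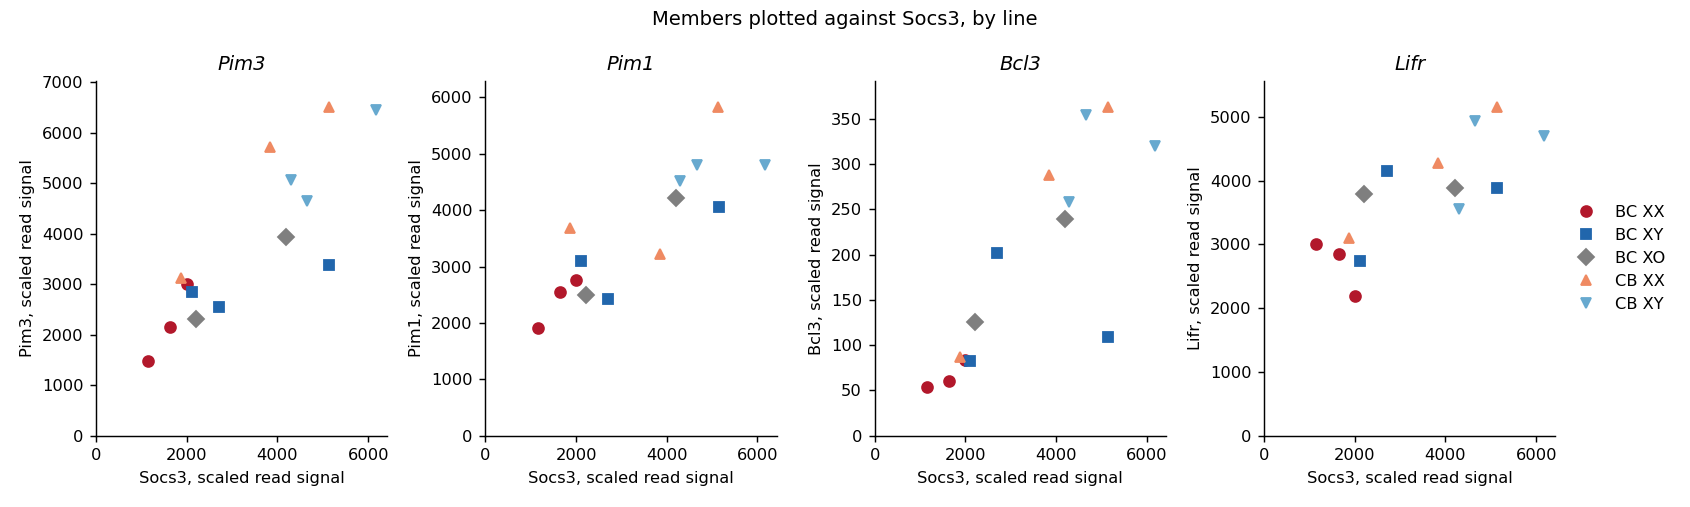
*Pim3*, *Pim1*, *Bcl3* and *Lifr* (vertical axes) against *Socs3* (horizontal axes), all as scaled read signal, with 1 point per line and the 5 groups by symbol. CB XX 3 lies with the BC XX lines at low values for *Pim3* and *Bcl3*, and BC XY 3 has the *Socs3* value of a CB line, 5147, at a *Bcl3* value of 109.

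The level of the fibroblast genes was set beside the members in the same way, over the 11 lines outside the BC XX group. Of 10 relations none had a permutation p under 0.05 after adjustment, and Pearson's r for *Socs3* was -0.50 (permutation p = 0.122, adjusted p = 0.933; Spearman rho = -0.65, adjusted p = 0.337). Without CB XY 2 and BC XY 3, the lines with the lowest fibroblast levels, r for *Socs3* was -0.17. For *Pim3* r was -0.13 and for *Bcl3* -0.11 in these 11 lines. After the group means were removed r was -0.65 for *Socs3*, -0.52 for *Pim3*, -0.48 for *Pim1* and -0.36 for *Bcl3*. It was then -0.58 for *Lifr*, -0.50 for *Stat3*, -0.45 for *Il6st*, -0.18 for *Lif*, 0.14 for *Jak1* and 0.04 for *Gbx2*. These within-group values were not tested. Within the BC XX group *Socs3*, *Pim1*, *Pim3* and *Bcl3* were all highest in BC XX 1, the line with the lowest fibroblast level of the group, and lowest in BC XX 3, the line with the highest, while *Jak1*, *Il6st*, *Stat3*, *Lif* and *Lifr* had the opposite order.

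**Figure D5:**
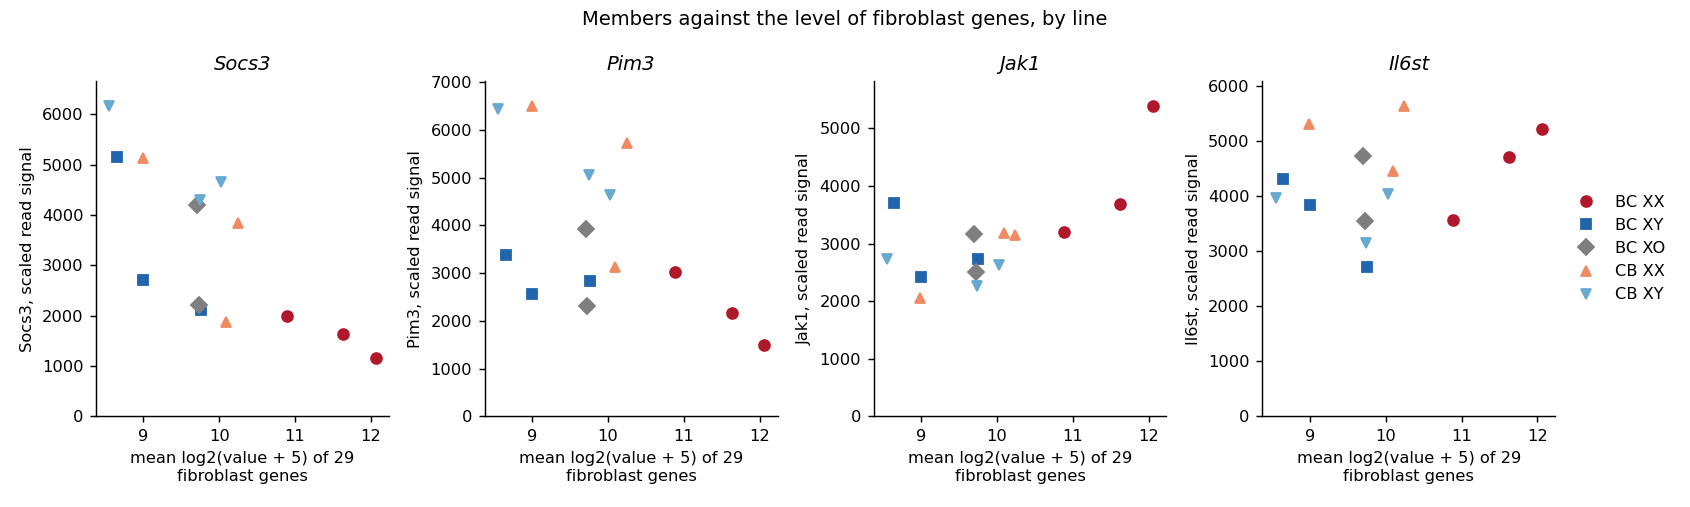
*Socs3*, *Pim3*, *Jak1* and *Il6st* as scaled read signal (vertical axes) against the mean log2(value + 5) of 29 fibroblast genes (horizontal axes), with 1 point per line. The 3 BC XX lines stand apart at 10.9 to 12.1 on the horizontal axis, where the other 11 lines reach at most 10.2.

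The wider pathway was followed with 4 lists that hold 59 genes in all, the members included. In the comparisons of XX with XY lines, pooled or within a cross, 0 of the 59 were called. Over all genes 5.21% were called in the pooled comparison, 5.70% within BC and 3.57% within CB. Between BC XX and BC XO lines 2 of the 59 genes were lower in XX, against 4.66% of all genes called in either direction. They were *Jak3*, a kinase best known from blood cells, at a log2 difference of -1.54 ± 0.36 (SE, limma adjusted p = 0.0325), and *Ier2*, an immediate early gene, at -1.13 ± 0.29 (SE, limma adjusted p = 0.0430). Without CB XY 2 and CB XY 3 in the shared estimate of the spread neither was called (limma adjusted p = 0.0513 and 0.0559).
Between CB and BC lines, averaged over XX and XY, the receptors and ligands had 1 of 14 higher and 0 lower in CB. For this and the following lists the background is the 16.0% of all genes called in either direction and the 9.22% called higher in CB. The gene was *Osm*, which encodes the related cytokine oncostatin M, at a log2 difference of 0.82 ± 0.17 (SE, limma adjusted p = 0.00984). Of 11 JAK and STAT genes 2 were higher, *Jak3* at 1.91 and *Tyk2* at 0.62, and 1 was lower, *Jak2* at -0.67. No STAT gene was called.
Of 19 inhibitors and adaptors 4 were higher, *Socs1* at 1.57, *Pias4* at 0.92, *Socs3* at 0.89 and *Sh2b3* at 0.84, and 2 were lower, *Pias2* at -0.33 and *Ptpn2* at -0.30. *Socs1*, a second feedback inhibitor of JAKs, had values of 27.5 to 34.6 in BC XX and of 34.9 to 43.5 in BC XY lines. It was at 98.1, 161 and 31.1 in CB XX and at 190, 111 and 170 in CB XY lines, so that CB XX 3 was again at the level of the BC lines.
Of 16 targets 7 were higher and 1 was lower, *Mcl1*, which encodes a survival factor of the BCL2 family, at -0.32. Beside the 4 members these were *Junb* at 1.96, *Ier2* at 1.69 and *Klf4* at 0.87, the last of which was named after its values were seen. *Klf4*, a pluripotency factor, had values of 4033 to 6662 in the CB lines other than CB XX 3, which had 3277, and of 1772 to 4897 in the BC XX and BC XY lines.
The median log2 difference was 0.62 over the 16 targets, 0.12 over the JAK and STAT genes, 0.02 over the inhibitors and adaptors and -0.06 over the receptors and ligands, against -0.01 over all genes. *Jak3*, *Junb* and *Ier2* lie on chromosome 8. The genes of chromosome 8 had a median log2 difference of 0.18 in the same comparison, against -0.01 over all genes, and CB XX 3 and CB XY 1 were above the other lines there, by a median of 0.25 and 0.31 over the 14-line median of each gene. The part of this chromosome in the 3 genes was not tested. For the chromosomes of the called members the medians were 0.04 on 11 (*Socs3*), 0.04 on 17 (*Pim1*), 0.01 on 15 (*Pim3*) and 0.09 on 7 (*Bcl3*). Single lines departed further from the 14-line medians. Chromosome 17 was lowest in BC XX 3 (-0.26) and CB XX 2 (-0.19) and highest in CB XY 1 (0.13). Chromosome 7 was lowest in BC XX 3 (-0.24) and highest in CB XY 1 (0.10). BC XX 3 was also lowest on 11 (-0.14) and 15 (-0.11). The part of these chromosomes was not tested either.
Among XX lines alone *Osm* (0.96), *Jak3* (1.86), *Pias4* (1.18), *Sh2b3* (0.86) and *Ier2* (1.76) were higher in CB on the log2 scale and *Jak2* (-0.97) was lower, in addition to *Pim3* and *Bcl3*. Among XY lines *Junb* (2.37), *Jak3* (1.96) and *Ier2* (1.62) were higher in CB and none was lower. Over all genes 7.15% were called in either direction among XX lines, with 2.90% higher in CB, and 0.640% among XY lines.
Without CB XY 2 and CB XY 3 the mean comparison called 4 of the 59 genes, each higher in CB, *Junb* at 2.17, *Jak3* at 2.07, *Ier2* at 1.89 and *Socs1* at 1.72 on the log2 scale, against 2.96% of all genes. The median over the 16 targets was then 0.57. Among XX lines *Jak3*, *Ier2* and *Pias4* were called, at the differences given above, against 4.08% of all genes, and *Pim3*, *Bcl3*, *Osm*, *Sh2b3* and *Jak2* were not (limma adjusted p = 0.0514, 0.0772, 0.0598, 0.0730 and 0.0684). Among XY lines, with CB XY 1 as the only CB line, 0 were called against 0.0124% of all genes, and *Junb*, *Jak3* and *Ier2* differed by 2.79, 2.29 and 2.02.

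The patterns most like those of 3 members were looked up over the 14 lines among the 16261 genes of the model, with Pearson's r of the log2 values as the measure and without a test. *Socs3* was most like *Pdgfa*, *Pigyl* and *Myh14*, each at r = 0.96, with r = 0.94, 0.91 and 0.89 after the group means were removed. *Stat3* was most like *Pptc7* at r = 0.93, *Lnx2* at 0.88 and *BC048403* at 0.88, and within groups r was 0.91, 0.68 and 0.83. *Lifr* was most like *Vangl1* at r = 0.92, *Dido1* at 0.91 and *Dusp16* at 0.90, and within groups r was 0.86, 0.83 and 0.91. All of these values share the 14 libraries and their scaling.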

How the data were processed

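RNA from 14 mouse ES cell lines was analysed. Per the labels and the methods, the authors made stranded libraries of total RNA depleted of ribosomal RNA, aligned single-end reads to mm9 with TopHat2 and compared genes with Cufflinks and Cuffdiff. The deposited values are 1 read signal for each gene and line, brought to a similar sum in all lines before deposit. In each line 97.4% to 98.2% of the values above 0 are whole multiples of 1 step (tolerance 0.01), taken as 1 read; since the rest are not whole, no test for counts was used. Values up to 3 steps, 1.22 to 7.37 by line, could not be separated from 0, for counting error only. Lines were grouped by the labels. Lines of a group are separate lines, so that p-values measure the spread between lines.

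Values were tested as log2(value + 5) with limma 3.58.1 in R 4.3.3 (trended variance, Benjamini-Hochberg adjustment over all genes, threshold 0.05). Such fold changes understate the change of low genes. The pooled comparison used 12 lines and genes at 10 or more in at least 6 of them, and all others a model of 5 groups on 14 lines and genes at 10 or more in at least 2. From that model 15 genes were left out because a whole group had 0 while others reached 100. Correlations used 100000 permutations. Motifs and exon lengths came from RefSeq promoters and GENCODE annotation on NCBIM37; chromosomes were found for 15241 of the 16261 genes. The fitting procedure was tested on simulated data for 3 of the comparisons. Python 3.11.15 joined the tables.

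The members and lists were chosen with earlier results of these data known. All 10 members are named in every comparison. From the 4 pathway lists up to 4 genes per direction past the threshold are named, and for *Lifr*, *Stat3* and *Socs3* the 3 most similar genes. Alternatives changed the pseudocount, filter, scaling, covariates and lines; the mean CB against BC comparison, the genes at 0 kept, the cross with the fibroblast level as covariates the 11 lines without a block and the pathway lists without CB XY 2 and CB XY 3 were added after the data were seen.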

Additional observations from a re-analysis of the deposited data

How the results depend on the processing

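The call of *Pim3* and *Bcl3* between CB XX and BC XX lines depended on the setting. With a pseudocount of 20 there was 1 gene called, and there were 0 without a filter on low values, with the fibroblast level as a covariate, without CB XY 2 and CB XY 3, and with only the 6 XX lines in the fit; leaving out 1 line gave 0 to 5. Where lines outside the contrast were left out, the log2 differences did not move and the spread was estimated from fewer lines. Between CB XY and BC XY lines 1 gene, *Pim3*, was called with the fibroblast level as a covariate or with only the 6 XY lines in the fit, and 0 to 1 when a line was left out. The comparison of CB with BC lines averaged over XX and XY fell from 4 genes to 0 with the fibroblast level as a covariate and without CB XY 2 and CB XY 3. It gave 2 to 6 with a line left out. Leaving out a line gave 0 to 1 in the pooled comparison of XX with XY lines and between BC XX and BC XO lines. All other counts of called genes kept their value or stayed within 1.5 times of it, and no difference called in the reported setting or in an alternative had the opposite sign in the other. For the remaining lost calls the cause was not tested. Over all genes the calls ranged, over the alternatives and lines left out, from 308 to 1746 (797 as reported) for XX against XY, from 8 to 1144 (927) for BC XX against BC XY, from 129 to 682 (581) for CB XX against CB XY, from 5 to 1095 (758) for BC XX against BC XO, from 0 to 5 (1) for BC XO against BC XY, from 2 to 971 (104) for CB XY against BC XY, from 38 to 2576 (1162) for CB XX against BC XX, from 0 to 25 (12) for the difference between the crosses and from 315 to 3656 (2605) for CB against BC. None of the 50 group means moved by more than its SD when values were divided by TMM size factors. Deviations of same-numbered lines from their group means correlated at -0.49 to 0.27, and 7 of 18 best matches had the same number. No pairing by replicate number was seen, but groups of 2 or 3 lines are too small for these values to decide it. In the 11 lines with numbered columns the replicate block called 0 of the 10 genes in each of 4 comparisons, as did the same 11 lines without it; over all genes the counts were 1129 against 1115 between BC XX and BC XY, and 332 against 1095 between BC XX and BC XO lines. A test for read counts had been planned and was not run, because the values are scaled and not all whole. With 2 or 3 lines a group the intervals are wide, and where one includes 0 the difference was not detectable.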
